A study of Mus musculus with 25 samples.

Results

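Uridine, the pyrimidine nucleoside that circulates in blood and bathes the brain, is broken down by uridine phosphorylase, trapped by uridine-cytidine kinases or made anew from glutamine, and 7 mouse genes of these routes were followed here in 2 RNA sequencing tables. They were chosen by name (Upp1, Uck1, Uck2, Uckl1, Cad, Dhodh and Umps), and Upp1 was selected on its measured diet shifts in these mice, which had opposite signs in precipitated and total RNA. All 7 were present and passed the filter on low counts in each table, among 45706 listed genes of the hypothalamus table (17592 tested) and 44674 of the cell line table (15466 tested).

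Upp1 cleaves uridine with phosphate into uracil and ribose 1-phosphate, and so removes uridine and frees its sugar for energy metabolism. Uck1 and Uck2 phosphorylate uridine and cytidine to monophosphates and are the entry of the salvage route, and Uckl1 is their relative of less settled activity. The de novo route is opened by Cad, a cytosolic protein that carries carbamoyl phosphate synthetase, aspartate transcarbamylase and dihydroorotase, continued by Dhodh, which oxidises dihydroorotate at the inner mitochondrial membrane, and closed by Umps, which turns orotate into uridine monophosphate.

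The hypothalamus libraries came from 12-week-old mice of genotype Slco1c1Cre+/-;ROSA26lSlL10aGFP+/-, in which a tamoxifen-inducible Cre under the Slco1c1 promoter switches on a GFP-tagged ribosomal protein. All mice had received tamoxifen 3 weeks before the diets began, and no group lacked Cre or tamoxifen. RNA precipitated with tagged ribosomes (IP) was sequenced after 3 days of high-fat diet (HFD) or control diet (CD). Total lysate RNA (INPUT) was sequenced after the same diets, which gave 4 groups. Each group held 4 libraries, each from a pool of 4 mice (2 male, 2 female). The labels do not say whether IP and INPUT libraries of the same number came from the same pool. The cell line was cEND, a mouse brain endothelial line, given the solvent DMSO or the Glut1 inhibitor WZB117 at 0.5 or 10 µM, with 1 library of each treatment at passages 12, 14 and 18, so that replicates were passages of 1 line. Total counts ran from 27.9 to 42.8 M (M, 1e6 counts) per hypothalamus library and from 27.3 to 41.3 M per cEND library.

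The mouse libraries carry the label of endothelial cells, and their markers went only partly with it. All 10 pan-endothelial markers were higher in IP (median log2 fold change 2.27), but their summed level was 57.3 to 86.8 CPM (counts per 1e6 counts of a library, with TMM factors) in IP and 12.9 to 19.3 CPM in INPUT. All 10 astrocyte markers were higher as well (median 2.94), at 18179 to 23334 CPM in IP and 2522 to 3283 CPM in INPUT, and no marker of either list was at 0 in a whole group. The IP is therefore called precipitated RNA here and not endothelial RNA. In cEND cells the 10 endothelial markers all exceeded a mean of 1 CPM and summed to 4738 to 6895 CPM.

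Upstream sequence of 3 of the genes is shown because they moved apart in culture: Upp1 was lowest at passage 14, while Umps and Cad were lowest at the last passage. The windows are the 250 bases before the RefSeq start site on build GRCm38.p6, read in the direction of the gene, at chr11:9117853-9118102 (+ strand) for Upp1, chr16:33967039-33967288 (- strand) for Umps and chr5:31054530-31054779 (+ strand) for Cad. Capitals mark GGGCGG or its reverse complement CCGCCC, the GC box letters, and ACGTG on either strand, the core of the hypoxia element.
Upp1: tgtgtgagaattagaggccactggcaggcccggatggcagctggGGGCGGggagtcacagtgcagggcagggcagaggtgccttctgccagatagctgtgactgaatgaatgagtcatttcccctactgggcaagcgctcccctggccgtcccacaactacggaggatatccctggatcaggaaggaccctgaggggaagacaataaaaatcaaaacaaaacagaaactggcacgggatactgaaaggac
Umps: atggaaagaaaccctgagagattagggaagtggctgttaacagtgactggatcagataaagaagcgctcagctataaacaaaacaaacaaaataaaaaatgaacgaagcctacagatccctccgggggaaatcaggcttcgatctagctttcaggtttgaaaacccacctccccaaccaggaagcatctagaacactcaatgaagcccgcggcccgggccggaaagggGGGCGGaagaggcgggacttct
Cad: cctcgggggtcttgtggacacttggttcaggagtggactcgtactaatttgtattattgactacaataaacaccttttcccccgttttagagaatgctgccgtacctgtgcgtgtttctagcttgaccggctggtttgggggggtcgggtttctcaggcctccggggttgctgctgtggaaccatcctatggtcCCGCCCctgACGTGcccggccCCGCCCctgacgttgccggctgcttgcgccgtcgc
GGGCGG began at position -206 before the start site in Upp1 and at -22 in Umps, and its reverse complement at -56 and -35 in Cad. It is common, being held by 39.4% of 20554 gene promoters of the same length. ACGTG was found in Cad alone of the 3, at -47 on the strand shown, and was held by 17.3% of promoters. The E-box CACGTG, which contains ACGTG, was held by 6.41% of promoters and by none of the 3. These are matches of letters and not measured binding sites. A window was available for 6 of the 7 genes, and Dhodh is named only. Uck2, also lowest at passage 18 in each treatment, is not shown, and its window held 4 matches of GGGCGG or its reverse complement. The windows of Uck1 and Uckl1 held 0. The RefSeq start site used for Uckl1 lies 2910 bases from the start of the gene in GENCODE, so its window falls inside the annotated gene. A link between these letters and passage was not tested.

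The levels of the 7 transcripts per kilobase of exon were ordered differently in the 3 kinds of RNA. Exon length here joins all annotated exons of a gene and is not the length of the transcripts present. The order of genes within 1 kind of RNA depends on that choice. In IP, Uck1 was at 5.47 ± 0.74 CPM per kb, Upp1 at 5.11 ± 1.19 and Umps at 4.33 ± 0.44 (SD over 8 libraries), with ranges that overlapped from each to the next. Uckl1 followed at 2.47 ± 0.16, Cad at 1.49 ± 0.28, Dhodh at 1.14 ± 0.11 and Uck2 at 0.917 ± 0.095 CPM per kb. Among these, Cad and Dhodh overlapped, as did Dhodh and Uck2.

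In INPUT, Umps had the highest level of the 7, at 4.23 ± 0.35 CPM per kb, and Upp1 the lowest, at 0.541 ± 0.098 (SD over 8 libraries). Uck1 stood at 3.11 ± 0.37, Uckl1 at 2.01 ± 0.10, Uck2 at 1.40 ± 0.12, Dhodh at 0.851 ± 0.064 and Cad at 0.704 ± 0.093 CPM per kb. The range of Dhodh overlapped with that of Cad and the range of Cad with that of Upp1, and the upper 4 were apart from each other.

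In cEND cells Upp1 led, at 59.6 ± 19.5 CPM per kb (SD over 9 libraries), and its lowest library lay above the highest of any other member. Cad at 25.5 ± 6.4, Uck2 at 24.0 ± 3.7 and Umps at 19.3 ± 4.3 CPM per kb overlapped in turn, and the range of Umps overlapped that of Uck1 at 12.7 ± 1.2. Uckl1 at 5.89 ± 0.63 and Dhodh at 3.31 ± 0.68 came last. The tables were scaled separately, so a level in cEND cells and a level in hypothalamus were not tested against each other.

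**Figure D1:**
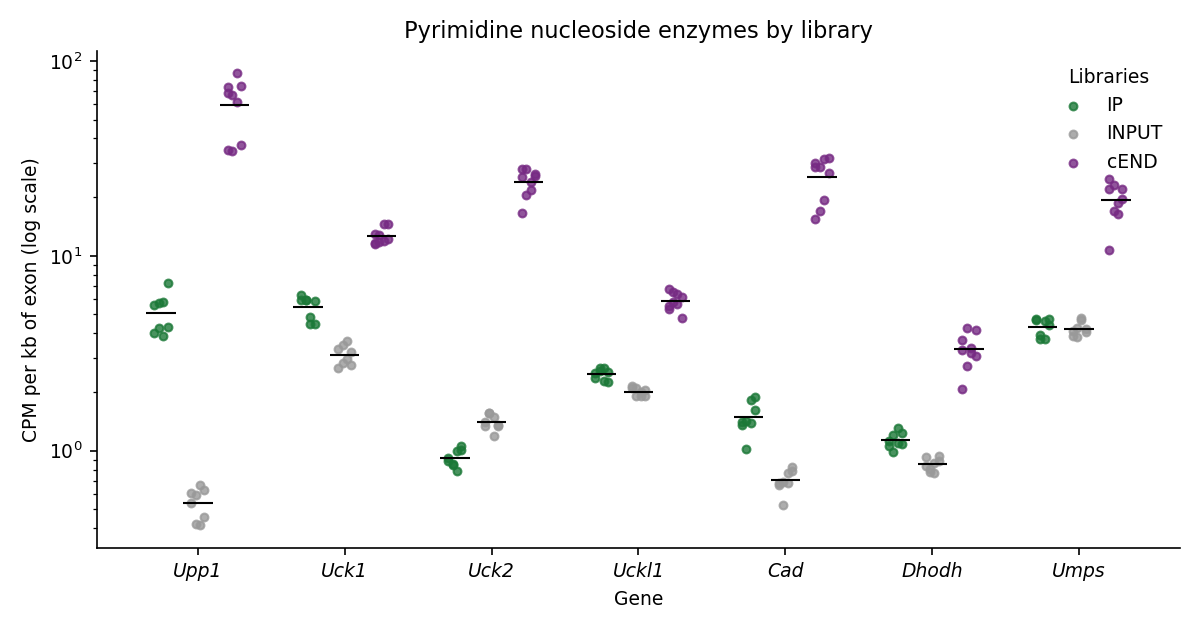
CPM per kb of exon (log axis) of the 7 genes, with 1 point per library and a line at the mean, for 8 IP, 8 INPUT and 9 cEND libraries. Upp1 is the lowest of the 7 in INPUT, at 0.541, and the highest in cEND cells, at 59.6 CPM per kb.

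Setting IP against INPUT asked which of the 7 transcripts were held by tagged ribosomes. Upp1 was the member most enriched: it had 7.57 to 14.2 CPM in the 8 IP libraries (median 9.74), against 0.813 to 1.31 CPM in the 8 INPUT libraries (median 1.11). No library of the 2 kinds overlapped, and the INPUT values rest on 26 to 48 counts per library, against 222 to 620 in IP. The log2 fold change was 3.20 ± 0.09 (SE; adjusted p = 1.34e-20 in edgeR's quasi-likelihood test with Benjamini-Hochberg adjustment, as for all adjusted p below), a 9.20-fold higher level. Of 17592 genes tested, 83 (0.472%) had a larger log2 fold change. In bulk RNA, fewer cells of a type and less RNA per cell cannot be told apart, and the part of the astrocyte and endothelial markers, which were enriched in the same libraries, was not tested.

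Upp1 lies on chromosome 11 from 9118103 to 9136170, and its paralog Upp2, a uridine phosphorylase encoded on chromosome 2 from 58567298 to 58792971 (GRCm38, GENCODE M21), went the other way. Upp2 was at 7.85 ± 0.77 CPM in IP and 36.5 ± 2.3 CPM in INPUT (SD, n = 8 each), a log2 fold change of -2.25 ± 0.06 (adjusted p = 1.13e-21). Per kilobase of exon, Upp1 made up 82.8 ± 4.1% of the sum of Upp1 and Upp2 in IP, 10.3 ± 1.6% in INPUT and 99.8 ± 0.1% in cEND cells. Each IP library had at least 78.0% and no INPUT library had more than 11.8%. These shares depend on the joined exon lengths used, 1.961 kb for Upp1 and 7.761 kb for Upp2, which are not the lengths of the transcripts present. Without division by length, the IP means were closer, at 10.02 CPM for Upp1 and 7.85 CPM for Upp2. The share was computed after the values of both genes were seen and carries no test.

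The salvage kinases split. Uck1 (chromosome 2, 32255002 to 32260159) had 12.2 to 17.3 CPM in IP (median 16.2) and 7.29 to 10.1 CPM in INPUT (median 8.48), so that every IP library was higher, by 0.79 ± 0.08 on the log2 scale (adjusted p = 2.69e-09). Uck2 (chromosome 1, 167222883 to 167285320) was the only member lower in IP, with 4.30 to 5.76 CPM (median 4.90), against 6.50 to 8.52 CPM in INPUT (median 7.52). Its groups did not overlap, at a log2 fold change of -0.64 ± 0.08 (adjusted p = 7.40e-08). Uckl1 (chromosome 2, 181569149 to 181584892) was higher without overlap by a smaller amount, 0.27 ± 0.06 (adjusted p = 1.15e-04), with 10.4 to 12.3 CPM in IP and 8.80 to 9.91 CPM in INPUT. The antisense gene Uckl1os covers 459 bases (9.92%) of the exons of Uckl1, and whether counting used strand was not given in the sources used here.

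On the de novo route Cad and Dhodh rose, and Umps did not pass. Cad (chromosome 5, 31054780 to 31078479) had 8.36 to 15.4 CPM in IP (median 11.6), against 4.33 to 6.78 CPM in INPUT (median 5.60), a 2.07-fold higher level without overlap (log2 fold change 1.05 ± 0.11, adjusted p = 2.91e-08). Dhodh (chromosome 8, 109591343 to 109608673) had 6.20 to 8.28 CPM in IP and 4.88 to 5.96 CPM in INPUT, and rose by 0.39 ± 0.08 on the log2 scale (adjusted p = 7.11e-05). Umps (chromosome 16, 33954782 to 33967038) had 13.1 to 16.6 CPM in IP and 13.3 to 16.6 CPM in INPUT, and these ranges overlapped. Its log2 fold change was 0.01 with an interval of -0.13 to 0.15 (95%), and its sign changed with the scaling.

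In all, 6 of the 7 passed the test and 6 had no overlap. Over all genes 83.7% passed and 60% had no overlap, so the number of members called is near the share of all genes.

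**Figure D2:**
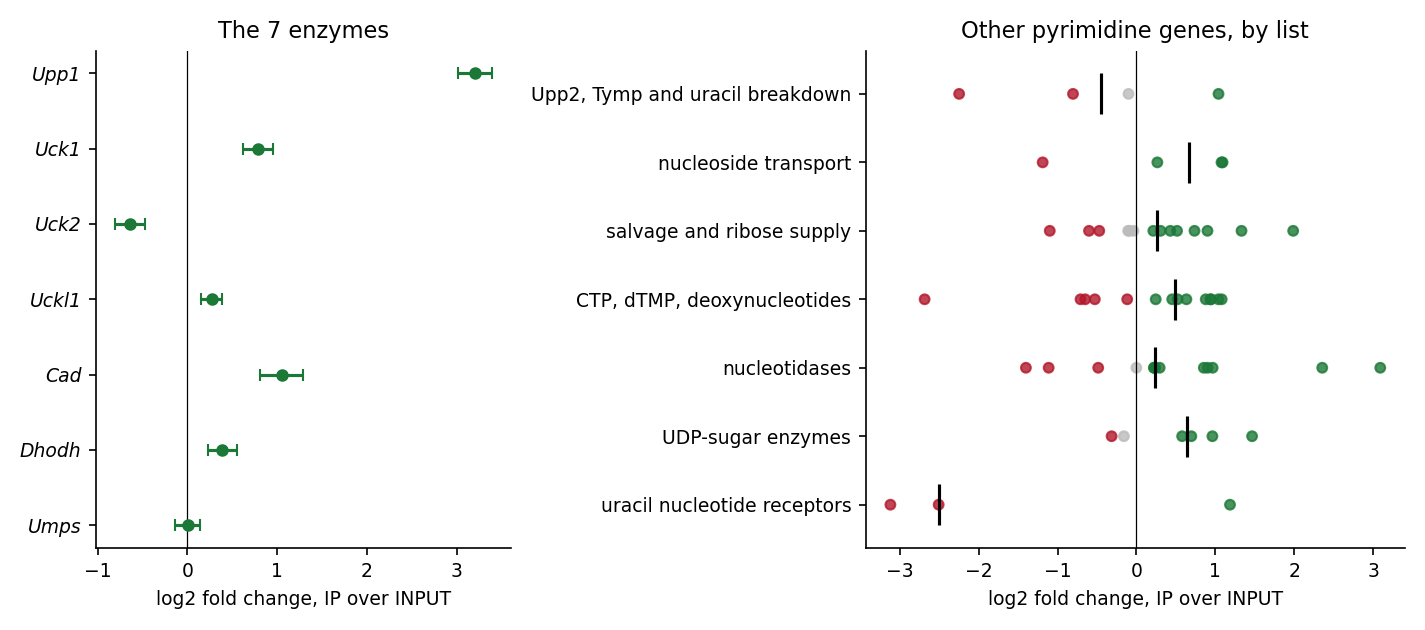
Log2 fold changes of IP over INPUT for the 7 enzymes (left, points with 95% intervals) and for 58 other pyrimidine genes by list (right, 1 point per gene; green and red mark genes higher and lower at an adjusted p under 0.05, grey the rest, bars the list medians). Upp1 stands at 3.20, while Uck2 lies below 0 and Umps at 0.

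Other genes of pyrimidine metabolism came from 7 lists with 65 members, of which 58 were tested between IP and INPUT. Of these 35 were higher in IP and 17 lower, where 41.6% of all genes were higher and 42.1% lower, with a median log2 fold change of 0.28 beside -0.02 over all genes. In the uracil breakdown list Dpyd, the dehydrogenase that reduces uracil, was higher by 1.04 ± 0.07 (11.6 CPM in IP and 5.53 CPM in INPUT). Upb1, which completes that breakdown, was lower (-0.80 ± 0.33), at only 0.20 CPM in IP and 0.357 CPM in INPUT. With each library left out in turn, 2 to 4 genes of this list passed. Of 4 equilibrative nucleoside transporters 3 were higher and 1 lower: Slc29a3, an intracellular one, had 70.1 CPM in IP and 32.1 CPM in INPUT (1.09 ± 0.06), Slc29a2 had a log2 fold change of 1.08 ± 0.10 and Slc29a4, which also carries monoamines, of -1.19 ± 0.08.

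Among 14 other salvage genes 8 were higher and 3 lower, led by Dctd, the deoxycytidylate deaminase, with 21.4 CPM in IP and 5.29 CPM in INPUT (1.99 ± 0.07), Prpsap1 (0.74 ± 0.05), a partner of ribose phosphate pyrophosphokinase, and Cmpk2, a mitochondrial nucleotide kinase (1.33 ± 0.08). All 14 genes of CTP, dTMP and deoxynucleotide supply passed, 9 higher and 5 lower, among them Samhd1, which degrades deoxynucleotides (0.95 ± 0.06), Nme2, a nucleoside diphosphate kinase (0.94 ± 0.06), and Nme7 (-2.68 ± 0.11). Of 13 nucleotidases 9 were higher and 3 lower, with Entpd2, an ectonucleotidase that hydrolyses extracellular triphosphates, at 33.4 CPM in IP and 3.81 CPM in INPUT (3.09 ± 0.09), Nt5c1a at 2.36 ± 0.10 and Entpd5 at 0.85 ± 0.05. Of 6 UDP-sugar enzymes 4 were higher and 1 lower, led by Ugp2, which makes UDP-glucose (1.47 ± 0.04), Galt (0.96 ± 0.06) and Ugdh (0.70 ± 0.05). Of 3 receptors for uracil nucleotides P2ry2 was higher by 1.19 ± 0.29, and P2ry6 (-3.12 ± 0.22) and P2ry14 (-2.51 ± 0.23) were lower, all at less than 4 CPM; 10 of 10 microglia and macrophage markers were lower in the same IP libraries (median -3.61), and their part was not tested.

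The next comparison asked what 3 days of HFD did to the 7 transcripts. Upp1 entered this work through this contrast, so its values are a description without a test. It had 11.0, 11.3, 11.4 and 14.2 CPM in the HFD IP libraries, against 7.84, 8.34, 7.57 and 8.45 CPM in the CD IP libraries. Every HFD library was above every CD library, and the HFD pool at 14.2 CPM stood apart from the other 3. The log2 difference was 0.59 ± 0.10 (SE), and 0.49 to 0.62 when each library was left out in turn.

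In INPUT the order was the reverse. Upp1 had 1.05, 0.826, 0.813 and 0.899 CPM in the HFD INPUT libraries, against 1.18, 1.16, 1.31 and 1.24 CPM in the CD INPUT libraries. These groups also did not overlap, on 26 to 36 counts per HFD library and 33 to 48 per CD library, and the log2 difference was -0.45 ± 0.21 (SE). Groups without overlap made up 6.12% of 15858 genes in IP and 4.64% of 16879 genes in INPUT. The diet shift in IP minus that in INPUT was 1.03 ± 0.19 on the log2 scale (SE). The ratio of the IP to the INPUT library of the same number was 10.5, 13.6, 14.1 and 15.8 for HFD and 6.62, 7.17, 5.79 and 6.82 for CD.

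Upp2 had 7.36 ± 0.36 CPM in HFD IP and 8.35 ± 0.79 CPM in CD IP, and 35.5 ± 2.5 CPM in HFD INPUT and 37.5 ± 1.9 CPM in CD INPUT (SD, n = 4 each). Its diet differences did not pass the test in IP (log2 fold change -0.17 ± 0.11, adjusted p = 0.571) or in INPUT (-0.08 ± 0.06, adjusted p = 0.823). The Upp1 share of the pair was 86.4 ± 1.8% in HFD IP and 79.3 ± 1.0% in CD IP, and 9.14 ± 1.55% in HFD INPUT and 11.4 ± 0.4% in CD INPUT, which carries the Upp1 values themselves and is no separate evidence.

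Cell markers in the same libraries were compared too. The astrocyte sum was 18179 to 20329 CPM in HFD IP and 20277 to 23334 CPM in CD IP, the pan-endothelial sum 64.3 to 74.7 CPM in HFD IP and 57.3 to 86.8 CPM in CD IP, and 0 of the 10 genes of either list passed in edgeR. Of the astrocyte genes 4 had an unadjusted p under 0.05 and 1 passed in DESeq2 (Slc1a2), and of the endothelial genes 0 did either. The oligodendrocyte sum was 602 to 712 CPM in HFD IP and 654 to 735 CPM in CD IP, and 0 of 6 genes passed in edgeR, with 2 at an unadjusted p under 0.05 and 2 in DESeq2 (Mbp and Mobp). The sum of 7 genes of other leukocytes, of which 2 were at 0 in all HFD IP libraries and 1 of the 2 tested passed, was 42.4 to 49.5 CPM in HFD IP and 32.1 to 37.4 CPM in CD IP, without overlap. In INPUT the pan-endothelial sum was 15.4 to 19.3 CPM with HFD and 12.9 to 15.3 CPM with CD, also without overlap, and 0 of 9 genes passed in edgeR, with 5 at an unadjusted p under 0.05 and 0 in DESeq2. The astrocyte sum was 2522 to 2963 CPM in HFD INPUT and 2571 to 3283 CPM in CD INPUT, and 0 of 10 genes passed in edgeR, with 3 at an unadjusted p under 0.05 and 0 in DESeq2. The share of all genes at an unadjusted p under 0.05 is not given here for diet within IP or INPUT, so these marker counts cannot be set against it. The part of these markers in the Upp1 values was not tested.

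**Figure D3:**
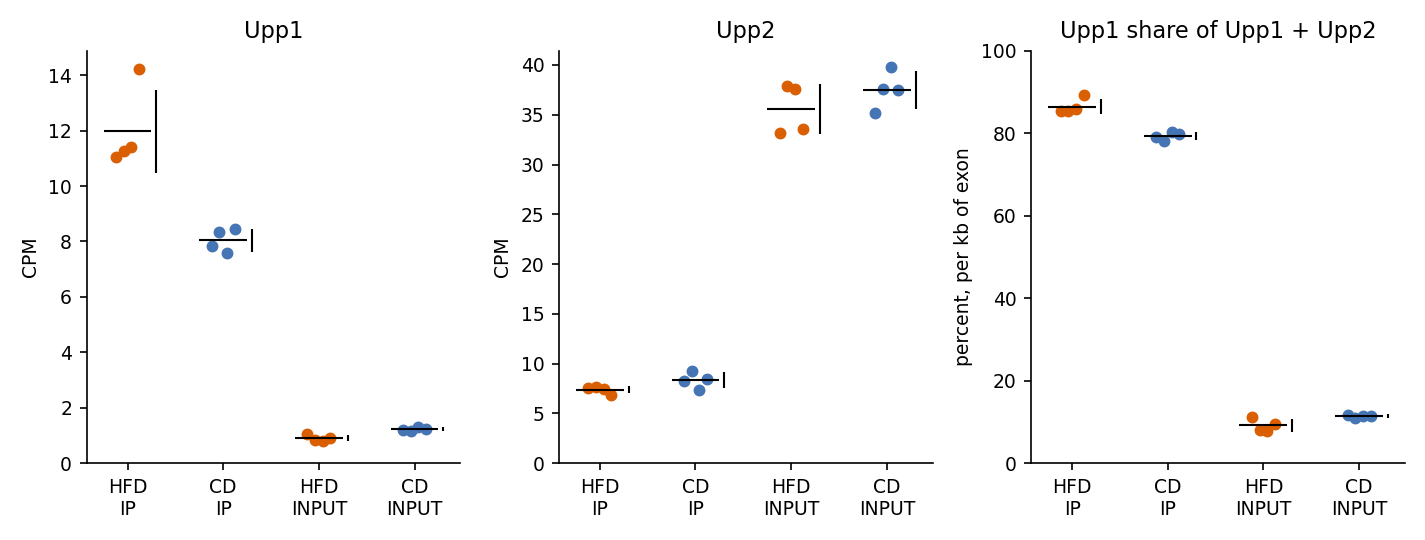
CPM of Upp1 (left) and Upp2 (middle) and the Upp1 share of their sum per kb of exon (right) in the 4 hypothalamus groups, with 1 point per pool of 4 mice, a line at the mean and a bar of 1 SD. Upp1 is higher in HFD than in CD in IP and lower in INPUT, and its share is above 78.0% in each IP library.

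None of the other 6 genes passed the test for diet. In IP 0 of 6 passed in edgeR, where 0.0883% of all genes did, with log2 fold changes from -0.06 (Cad) to 0.14 (Uckl1) and adjusted p from 0.592 to 0.994. In INPUT 0 of 6 passed, where 0.0355% of all genes did, with log2 fold changes from -0.18 (Uck1) to 0.01 (Umps) and adjusted p from 0.727 to 0.995. The difference between both diet effects passed for 0 of 6 (adjusted p = 1 for each) and for 0% of all genes, of which 755 had an unadjusted p under 0.05 and 2 passed in DESeq2. In each of these comparisons 0 of the 6 had an unadjusted p under 0.05 in edgeR, and 0 passed in DESeq2.

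The intervals show how much change the design could have missed. For Umps in IP the 95% interval of the log2 fold change was -0.25 to 0.18, for Uckl1 -0.05 to 0.33 and for Cad, whose CD IP pools spread from 8.36 to 15.4 CPM, -0.42 to 0.30. HFD and CD libraries overlapped for each of the 6 in IP and in INPUT. Of the other pyrimidine genes 1 of 57 passed in IP, Entpd2, at 28.0 CPM in HFD and 38.7 CPM in CD (log2 fold change -0.45 ± 0.08, adjusted p = 0.0347). This call was lost when any of 7 single libraries of the 8 was left out (adjusted p from 0.0558 to 0.143) and kept without HFD IP library 2 (adjusted p = 0.0271). In IP 8 of the 57 had an unadjusted p under 0.05, and 2 passed in DESeq2 (Entpd2 and Uap1l1). In INPUT 0 of 58 passed in edgeR, of which 6 had an unadjusted p under 0.05, and 0 passed in DESeq2. The counts at an unadjusted p stand without the share of all genes, which is not given here. The median log2 fold changes of these lists were 0.04 in IP and 0.00 in INPUT.

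In cEND cells WZB117 was used to inhibit the glucose transporter Glut1, and Umps, Dhodh and Uck2, 3 of the enzymes that lead to UMP, fell at 10 µM once passage was in the model. Libraries of the same passage deviated together, so the value with passage as a block is given wherever it changes a call. Umps had 57.2, 67.9 and 37.4 CPM at 10 µM, against 76.4, 80.6 and 65.1 CPM with DMSO, at passages 12, 14 and 18. It was lower at each passage, by 25.1, 15.7 and 42.5%, although the groups overlapped across passages. The log2 fold change was -0.46 ± 0.22 (adjusted p = 0.497) without the block and -0.49 ± 0.08 (adjusted p = 1.05e-04) with it.

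Dhodh had 21.2, 19.4 and 13.1 CPM at 10 µM, against 23.5, 26.8 and 20.0 CPM with DMSO, in the same order of passages. It too was lower each time, at -0.40 ± 0.22 (adjusted p = 0.580) without the block and -0.42 ± 0.10 (adjusted p = 0.00227) with it. Uck2 had 130.4, 143.0 and 90.9 CPM at 10 µM, against 139.3, 152.1 and 119.6 CPM with DMSO. The difference was smaller at passages 12 and 14 (-0.09 and -0.09 on the log2 scale) than at passage 18 (-0.40), and was -0.20 ± 0.07 (adjusted p = 0.0297) with the block, against -0.18 ± 0.18 (adjusted p = 0.834) without it.

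Upp1 was 17.2, 7.28 and 12.0% higher at 10 µM than with DMSO at the 3 passages, a log2 fold change of 0.16 ± 0.06 with the block that did not pass (adjusted p = 0.0751). Cad (-0.13 ± 0.07, adjusted p = 0.187), Uck1 (0.16 ± 0.08, adjusted p = 0.172) and Uckl1 (-0.06 ± 0.08, adjusted p = 0.724) did not pass either. In edgeR 0 of 7 members passed without the block (0 at an unadjusted p under 0.05, and 0 in DESeq2), beside 1.27% of all genes, and 3 of 7 with it, all lower, beside 18.5% of all genes (9.29% lower). A decrease at all 3 passages, as Umps, Dhodh and Uck2 had, was found for 23.4% of all genes.

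At 0.5 µM 0 of 7 members passed in edgeR with or without the block (0 at an unadjusted p under 0.05, and 0 in DESeq2), beside 0% of all genes, of which 55 had an unadjusted p under 0.05 and 0 passed in DESeq2. The log2 fold changes with the block ran from -0.15 (Dhodh, interval -0.35 to 0.04) to 0.04 (Upp1, interval -0.09 to 0.16). Umps at 0.5 µM had 76.9, 85.9 and 58.9 CPM at passages 12, 14 and 18. Between 10 and 0.5 µM, 0 of 7 passed in edgeR without the block (0 at an unadjusted p under 0.05, and 0 in DESeq2), beside 1.27% of all genes, and Umps alone did with it (-0.46 ± 0.08, adjusted p = 2.06e-04), beside 17.8%. The comparisons share libraries and are not independent of each other.

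The 10 cell cycle markers summed to 1176 to 1740 CPM at 10 µM and 1639 to 2041 CPM with DMSO, and 0 of 10 passed in edgeR without the block (1 at an unadjusted p under 0.05, and 0 in DESeq2). With the block, as Umps, Dhodh and Uck2 were called, 5 of the 10 cell cycle markers passed, all lower (Mki67, Top2a, Ccnb1, Cdk1 and Mcm2), and the median log2 fold change of the 10 was -0.26. Their part in the values of Umps, Dhodh and Uck2 was not tested. Of 53 other pyrimidine genes 0 passed in edgeR at 10 µM against DMSO without the block (6 at an unadjusted p under 0.05, and 2 in DESeq2, Dctd and Uap1). With the block 10 of them were higher and 10 lower, where 9.23% of all genes were higher and 9.29% lower. These shares also stand beside the counts of cell cycle markers and UDP-sugar enzymes with the block. For an unadjusted p under 0.05 without the block, the share of all genes is not given here. The lower ones with the block included the CTP synthase Ctps (-0.42), the thymidylate synthase Tyms (-0.29), Dctd (-0.40) and the plasma membrane nucleoside transporter Slc29a1 (-0.33). The higher ones included 4 of 6 UDP-sugar enzymes, among them Uap1, which makes UDP-N-acetylglucosamine (0.53).

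Of the 7 members, Upp1 had the largest log2 fold change between passages 14 and 12 and between passages 18 and 14, and Cad between passages 18 and 12. Upp1 had 144.5, 67.5 and 120.3 CPM with DMSO, 145.3, 68.2 and 130.5 CPM at 0.5 µM and 169.4, 72.4 and 134.8 CPM at 10 µM, at passages 12, 14 and 18. All 3 libraries of passage 14 lay below all of passages 12 and 18, and all of passage 18 lay below those of passage 12. With treatment in the model, the log2 fold change was -1.14 ± 0.06 (adjusted p = 1.03e-13) between passages 14 and 12, 0.88 ± 0.06 (adjusted p = 1.28e-11) between passages 18 and 14, and -0.26 ± 0.06 (adjusted p = 0.00108) between passages 18 and 12. Of 15466 genes, 2.70% had a lower log2 fold change between passages 14 and 12.

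No other member passed between passages 14 and 12, so that 1 of 7 did, beside 21.6% of all genes. The libraries of Upp1, Cad (lower at passage 14) and Uck2 (higher) did not overlap, which held for 29% of all genes. Umps there had a log2 fold change of 0.16 ± 0.08 (adjusted p = 0.158), which became 0.25 (adjusted p = 0.0450) without the DMSO library of passage 14. By passage 18 all 3 de novo enzymes were lower than at passage 12. Cad had 159.0 CPM with DMSO, 139.4 CPM at 0.5 µM and 126.9 CPM at 10 µM at passage 18, against 246.3, 260.7 and 255.5 CPM in the same order at passage 12. Without overlap, it fell by 0.86 ± 0.07 on the log2 scale (adjusted p = 1.11e-10), and 4.40% of genes had a lower value.

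Dhodh fell by 0.53 ± 0.10 (adjusted p = 9.86e-05), with 13.1 to 20.0 CPM at passage 18 and 21.2 to 26.3 CPM at passage 12, without overlap. Umps fell by 0.42 ± 0.08 (adjusted p = 2.66e-04), with 37.4 to 65.1 CPM at passage 18 and 57.2 to 76.9 CPM at passage 12, which overlapped. Uck2 fell by 0.37 ± 0.07 (adjusted p = 6.70e-05), with 90.9 to 119.6 CPM at passage 18 and 130.4 to 140.8 CPM at passage 12, without overlap. With no treatment term, the calls of Umps (adjusted p = 0.230) and Dhodh (adjusted p = 0.0573) were lost and those of Upp1, Uck2 and Cad were not.

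In all, 5 of 7 members passed between passages 18 and 12, all lower, beside 35.1% of all genes (19.2% lower). Uckl1 went the other way, higher at passage 18 without overlap (log2 fold change 0.17), and did not pass, with an unadjusted p under 0.05. Uck1 (-0.13) did not pass either, and its libraries overlapped. Groups without overlap between these passages made up 35.3% of all genes. Between passages 18 and 14, 7 of 7 passed, beside 33.1% of all genes: Upp1 and Uckl1 (0.30 ± 0.08, adjusted p = 0.00506) were higher at passage 18, and Cad (-0.71 ± 0.07), Umps (-0.58 ± 0.08), Uck2 (-0.49 ± 0.07), Dhodh (-0.43 ± 0.10) and Uck1 (-0.20 ± 0.08, adjusted p = 0.0482) were lower. The call of Uck1 was lost in DESeq2 (adjusted p = 0.113), with RLE factors (0.0590) and when any of 7 single libraries of the 9 was left out, and that of Uckl1 without the 10 µM library of passage 14 (adjusted p = 0.0651). With no treatment term 4 of 7 passed. The labels do not say how many cultures were grown at each passage, so a passage and the culture or cultures behind it cannot be told apart.

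**Figure D4:**
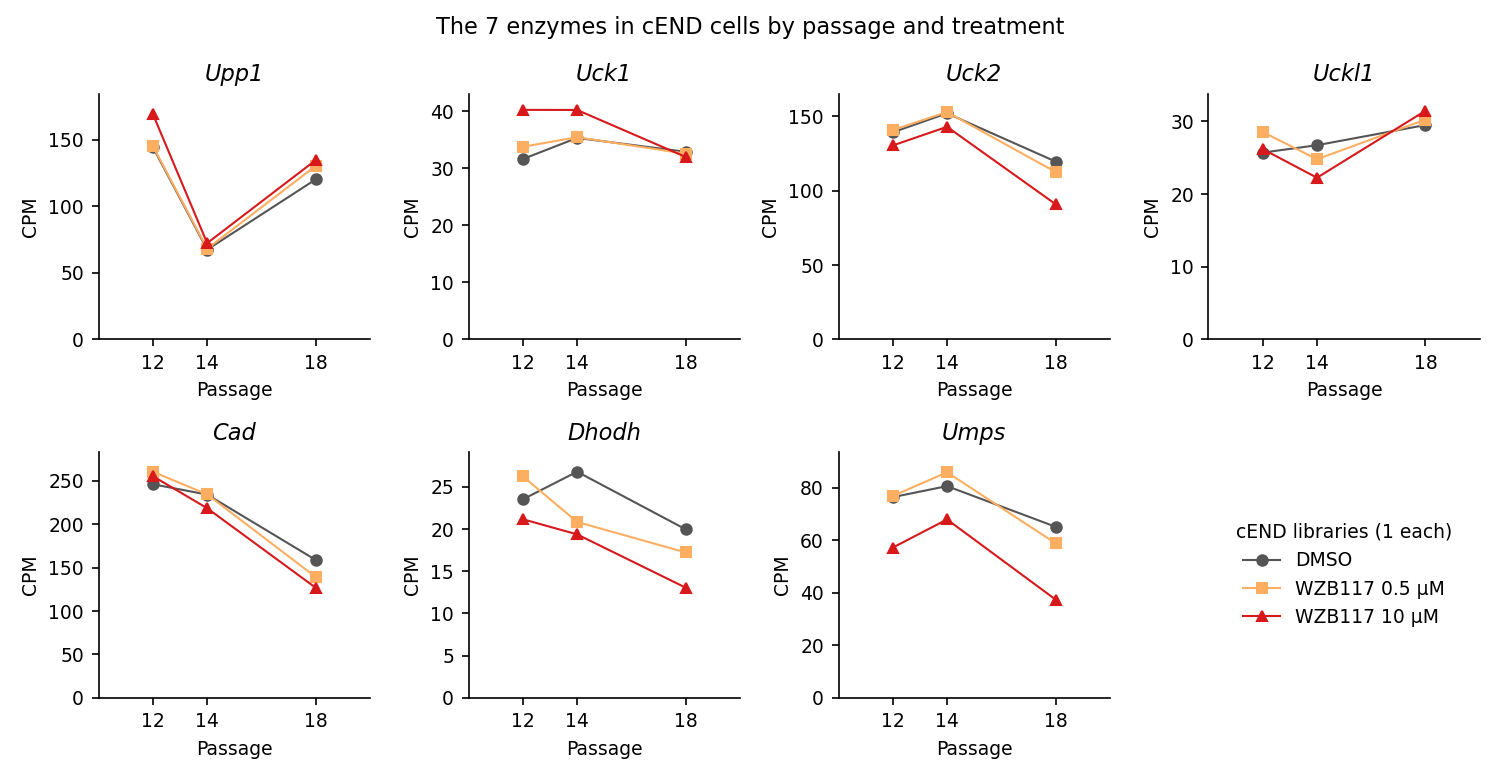
CPM of the 7 enzymes in cEND cells against passage, with 1 library per point and a line for each treatment. Upp1 is lowest at passage 14 in each treatment (67.5 to 72.4 CPM), Cad, Dhodh, Umps and Uck2 are lowest at passage 18, and Umps at 10 µM lies below DMSO at each passage.

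Of 14 genes of CTP, dTMP and deoxynucleotide supply 8 were lower and 1 higher at passage 18 than at passage 12 (median log2 fold change -0.39, beside 0.00 over all genes), among them the ribonucleotide reductase subunit Rrm2 (-0.70 ± 0.07, 134 CPM at passage 18 and 214 CPM at passage 12), Nme1 (-0.54 ± 0.07) and Tyms (-0.46 ± 0.06). Of 14 other salvage genes 6 were lower and 1 higher, led by Prps1, which makes phosphoribosyl pyrophosphate (-0.58 ± 0.08), and the deoxycytidine kinase Dck (-0.51 ± 0.08). With no treatment term 2 of these 14 were lower and 0 higher, and in all 3 or 4 passed without the 0.5 µM or the 10 µM library of passage 12 or the 10 µM library of passage 18. Over the 7 lists 20 of 53 were lower and 8 higher, where 19.2% of all genes were lower and 15.9% higher. Of 4 nucleoside transporters 1 was higher and 0 lower, and of 10 nucleotidases 3 were higher and 2 lower. Of 6 UDP-sugar enzymes 2 were higher and 3 lower, and of 2 uracil nucleotide receptors 0 were higher and 1 lower. With no treatment term the counts over the lists were 14 lower and 4 higher.

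Among genes that act on nucleosides or nucleotides at the cell surface, Slc29a1 had 186 CPM at passage 18 and 125 CPM at passage 12 (log2 fold change 0.56 ± 0.06), the ectonucleotidase Entpd1 293 CPM at passage 18 and 88.0 CPM at passage 12 (1.73 ± 0.07), and the uridine diphosphate receptor P2ry6 6.50 CPM at passage 18 and 20.5 CPM at passage 12 (-1.67 ± 0.11). Of 10 cell cycle markers 8 were lower at passage 18 than at passage 12, with sums of 1176 to 1639 CPM at passage 18 and 1651 to 1908 CPM at passage 12. All 10 endothelial markers were higher at passage 18, with sums of 6434 to 6895 CPM at passage 18 and 4738 to 5180 CPM at passage 12. The part of either in the values of the 7 enzymes was not tested.

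The genes whose levels followed Upp1 most closely differed between the tables. Over the 16 hypothalamus libraries, after the mean of IP and of INPUT was subtracted, Pearson's r of log2 CPM with Upp1 was 0.84 for Cox6b2, a cytochrome oxidase subunit, 0.78 for Shc4, an adaptor protein, and 0.76 for Eef2kmt, a methyltransferase of elongation factor 2, among 13300 genes. Cox6b2 had 3.33 ± 0.26 CPM in HFD IP and 2.21 ± 0.32 CPM in CD IP, and 0.761 ± 0.070 CPM in HFD INPUT and 0.924 ± 0.114 CPM in CD INPUT (SD, n = 4 each). The ranking matched the Upp1 diet shifts themselves, so these diet values follow from how Cox6b2 was picked and are no separate evidence. In the same libraries the highest r of another member with Upp1 was 0.58, for Uckl1.

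Over the 9 cEND libraries the 3 highest of 11910 genes were Adora2a, an adenosine receptor, at r = 0.993, and the interferon-induced genes Rsad2 (0.991) and Ifitm3 (0.990). Rsad2 had 99.5 ± 2.4 CPM at passage 12, 40.7 ± 0.9 CPM at passage 14 and 78.1 ± 5.9 CPM at passage 18 (SD, n = 3 each). These libraries share passages, and the values are descriptions over the genes compared. Of the members Uckl1 (0.55) had the highest r with Upp1 and Uck2 (-0.52) the lowest.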

How the data were processed

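RNA sequencing of 16 mouse hypothalamus libraries and 9 cEND libraries was available as 2 tables of estimated counts per Ensembl gene, deposited by the authors without scaling, per the file headers and values (17.4 and 19.8% of values were not whole). Genome build GRCm 38 is named in the submitters' processing notes. The sources used here do not give the aligner, the counting program, the annotation release or the use of strand. Symbols, positions and exon lengths were taken from GENCODE M21 by identifier, and promoter windows from RefSeq.

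Estimated counts were rounded and fitted in edgeR 4.0.16 (R 4.3.3; TMM factors, filterByExpr, robust quasi-likelihood test, Benjamini-Hochberg adjustment over all genes tested, threshold 0.05; tests 2-sided). IP was compared with INPUT over 16 libraries, diet within each over 8 and as a difference over 16, and WZB117 and passage over 9. SE is the size of the log2 fold change divided by the root of F. CPM used TMM factors over all libraries of a table. For levels between genes it was divided by the joined length of all annotated exons of the gene. Passage fits held treatment as a term. Alternatives were DESeq2 1.42.0, RLE factors, omission of mitochondrial and ribosomal RNA genes (32.7 to 39.4% of counts in INPUT, 7.81 to 10.5% in IP, 2.18 to 3.00% in cEND), no filter, a replicate block and omission of each library. The scripts were tested on simulated data.

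The 7 members, the gene lists and the tests were chosen with earlier results of these data known. All 7 members entered every comparison, with Upp1 described and not tested for diet. Not every member is named in each, and some comparisons give counts, ranges or selected members only. At most 3 genes of each list with the smallest p are named, and the 3 genes per table most like Upp1. The Upp1 share of the pair with Upp2 was added after the values were seen. No libraries of a group were alike within sampling noise (lowest chi-square per degree of freedom 9.08). In cEND cells libraries of the same passage deviated together, with r from 0.51 to 0.73 in all pairs, so passage pairs them. All columns of both tables were used. In the hypothalamus, p-values measure the spread between pools of 4 mice. For WZB117 without the block they measure the spread between passages of 1 line. In fits that hold passage, they measure the spread left between libraries once passage and treatment are fitted. The libraries of a passage are not known to be separate repeats of it, so p-values for passage carry no known spread between such repeats.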

Additional observations from a re-analysis of the deposited data

Results flagged for a closer look

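Among 28 groups of 4 libraries (7 genes in 4 groups), 1 had a library far from the others: the highest HFD IP value of Upp1, 14.2 CPM, beside 11.0 to 11.4 CPM in the other 3 pools, a gap of 0.876 of the group's range. Chance alone marks about 1 in 20 groups. Without that library the HFD minus CD log2 difference of Upp1 in IP was 0.49.

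The diet shift of Upp1 was 1.03 larger on the log2 scale in IP than in INPUT, with all 4 HFD libraries above CD in IP and all 4 below CD in INPUT. The gene was chosen for this difference, which therefore was not tested. The INPUT side rests on 26 to 48 counts per library.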

How the results depend on the processing

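The count of members called stayed at 6 between IP and INPUT, at 0 of 6 for diet in IP, in INPUT and for their difference, and at 0 for 0.5 µM WZB117, under DESeq2, RLE factors, omission of mitochondrial and ribosomal RNA genes, no filter, the replicate block and omission of each library. Of 364 member values under other settings that kept all libraries, 348 kept direction and call. The call was lost by 8 and gained by 4, and 4 changed sign. With 1 library left out the numbers, in the same order, were 639, 8, 1 and 66 of 714 values. Both tallies include the diet values of Upp1, for which that gene was chosen, and for these values they are no evidence of stability. The sign changed for Umps between IP and INPUT with DESeq2 (-0.024) and RLE factors (-0.029), for Dhodh by diet in IP with the replicate block (0.0018) and for the Dhodh difference of diet effects without mitochondrial and ribosomal RNA genes (0.010); the cause was not tested, and none of these values passed a test. 

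With passage as a replicate block the members called were 3 at 10 µM against DMSO and 1 against 0.5 µM, and all genes called were 2864 and 2759, against 197 and 197 without it. With no treatment term, 3 members were called between passages 18 and 12 and 4 between passages 18 and 14. Leaving out each library gave 1 to 2 members between passages 14 and 12. In the hypothalamus, IP and INPUT libraries of the same number deviated together with r from 0.10 to 0.18 for CD, each best with its own number, and from 0.02 to 0.19 for HFD, 3 of 4 best with their own, as a hint from the data and not from the design. Between diets r ran from 0.01 to 0.05 in IP, 1 of 4 best with its own number, and from 0.05 to 0.14 in INPUT, 3 of 4. The replicate block changed no member's call there. The log2 fold changes of HFD against CD in IP with each library left out were -0.23 to 0.053 for Cad, -0.080 to 0.067 for Dhodh, -0.096 to 0.022 for Umps. In INPUT they were -0.11 to 0.099 for Cad, -0.056 to 0.041 for Dhodh, -0.13 to 2.9e-05 for Uck2, -0.060 to 0.060 for Umps. For the difference of diet effects they were -0.24 to 0.034 for Cad, -0.079 to 0.063 for Dhodh, -0.11 to 0.019 for Umps. For 10 µM against DMSO they were -0.31 to 0.15 for Cad, -0.18 to 0.065 for Uckl1, -0.11 to 0.45 for Upp1. For 0.5 µM against DMSO they were -0.20 to 0.21 for Cad, -0.013 to 0.064 for Uck1, -0.12 to 0.091 for Uck2, -0.043 to 0.10 for Uckl1, -0.13 to 0.13 for Umps, -0.22 to 0.31 for Upp1. For 10 against 0.5 µM they were -0.30 to 0.17 for Cad, -0.29 to 0.017 for Uck2, -0.20 to 0.048 for Uckl1, -0.15 to 0.41 for Upp1. For IP against INPUT they were -0.019 to 0.039 for Umps. None of these crossed the threshold. Genes called over the whole table numbered 183 in DESeq2 and 14 in edgeR for diet in IP, 50 and 6 in INPUT, 2 and 0 for their difference, 504 and 197 for 10 µM against DMSO and 483 and 197 for 10 against 0.5 µM. With no filter the diet counts were 398 in IP and 116 in INPUT, and with the replicate block 52 and 43; with each library left out all genes called numbered 5 to 50 in IP and 2 to 17 in INPUT, 38 to 195 for 10 µM against DMSO and 33 to 152 against 0.5 µM. The share of all genes beside the members' counts thus depends on these settings. Depth limits Upp1 in INPUT most, at 26 to 48 counts per library.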
